A study of Mus musculus with 36 samples.

Results

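Cxcl13, Ccl19 and Madcam1 were followed in every library of a targeted RNA panel read on the mouse colon and on colon tumours. They are 3 of the 988 genes counted per library, and were read in both count tables of the series. They were chosen by name as genes of organised lymphoid tissue, with earlier results of these data known. The 34 libraries analysed, of 36 samples, fall into 9 groups. Colon tumours came from C57BL/6 wild-type mice (n = 5) and from mice of the Kit-W/sh genotype (n = 5), called sash here, at 32 weeks of age. These mice had received 6 intraperitoneal injections of azoxymethane (AOM), a chemical that causes colon tumours, at 10 mg/kg each week, and their tumours were taken 18 weeks after the last one. Preneoplastic lesions of the colon were taken from wild-type and sash mice aged 14 weeks (n = 3 per genotype), 3 weeks after a course of 3 AOM injections given over 3 weeks. Another set of wild-type mice, also aged 14 weeks, was treated with AOM by the same labelled schedule (AOM only, n = 3), cromolyn together with AOM for 3 weeks (n = 3), or AOM for 3 weeks followed by cromolyn for 3 weeks (n = 3). The labels place the AOM-only and both cromolyn groups 3 weeks after the last AOM. By these labels the cromolyn groups also differ in the time between cromolyn and sampling. Cromolyn is a drug used to stabilise mast cells, and every group named so far had been given AOM. Tumours of MC-38, a mouse colon carcinoma line, were grown in wild-type hosts (4 of 5 samples analysed here, without replicate 2) and sash hosts (5 of 6, without replicate 3), labelled as saline-treated. The sash mutation alters the regulation of Kit, a receptor that mast cells need but that other cells also carry, so a sash mouse differs from a wild-type mouse in more than mast cells. The labels do not say that each sample was a separate mouse, so the tests measure only the spread between these samples.

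In the gut, B and T cells gather in organised follicles such as colonic patches, isolated lymphoid follicles and, in chronic inflammation, tertiary lymphoid structures. Cxcl13 is the chemokine by which follicular stroma draws in B cells and follicular helper T cells through the receptor Cxcr5. Ccl19 is made by stromal cells of the T cell zone and by mature dendritic cells, and draws T cells, B cells and dendritic cells through Ccr7. Madcam1 is an adhesion molecule of mucosal high endothelial venules and of follicular stroma, and the integrin of Itga4 and Itgb7 on lymphocytes binds it. In lymphoid organs all of them are known targets of the lymphotoxin beta receptor (Ltbr), whose ligand is made of Lta and Ltb and which acts through NF-kappaB.

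Since these genes share that pathway, the 250 bases before each transcription start are shown for NF-kappaB-type patterns. They are RefSeq sequences of GRCm38.p6, a build other than the mm9 named for the files, and all 3 genes were matched by symbol. The Cxcl13 window is chr5:95956689-95956938 on the plus strand, that of Ccl19 is chr4:42756366-42756615 on the minus strand, and that of Madcam1 is chr10:79664309-79664558 on the plus strand. Each runs 5′ to 3′ along its gene, with capitals for matches, on either strand, to GGGA followed by 4 bases of any kind and CC, or to GGGA followed by 2 bases of any kind and TTTG.
Cxcl13: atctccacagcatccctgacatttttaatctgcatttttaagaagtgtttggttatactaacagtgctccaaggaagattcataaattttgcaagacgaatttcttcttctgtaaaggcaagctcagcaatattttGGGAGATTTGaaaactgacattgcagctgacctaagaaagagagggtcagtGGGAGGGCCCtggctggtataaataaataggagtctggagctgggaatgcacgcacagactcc
Ccl19: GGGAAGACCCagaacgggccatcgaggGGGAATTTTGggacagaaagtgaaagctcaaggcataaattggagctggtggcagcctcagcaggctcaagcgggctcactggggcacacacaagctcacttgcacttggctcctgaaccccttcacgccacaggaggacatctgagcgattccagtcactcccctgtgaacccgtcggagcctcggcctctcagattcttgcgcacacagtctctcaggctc
Madcam1: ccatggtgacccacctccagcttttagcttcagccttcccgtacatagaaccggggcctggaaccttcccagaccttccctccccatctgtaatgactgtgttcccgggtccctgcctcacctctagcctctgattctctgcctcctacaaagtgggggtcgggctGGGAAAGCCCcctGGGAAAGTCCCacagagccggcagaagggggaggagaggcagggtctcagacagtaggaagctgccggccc
The first of these patterns is a general NF-kappaB-type motif and stood in all 3 windows. It lay 63 bases before the start of Cxcl13 (GGGAGGGCCC) and 250 bases before that of Ccl19 (GGGAAGACCC). Madcam1 had it 84 bases (GGGAAAGCCC) and 71 bases (GGGAAAGTCC) before the start, and a match on the other strand, GGAAAGTCCC, overlapped the second of these. It is a common pattern, held by 17.6% of the 32851 promoter windows of this length (27025 genes). The second pattern was written down after these sequences were seen and is held by 1.21% of the windows. It stood 114 bases before the start of Cxcl13 (GGGAGATTTG) and 223 bases before that of Ccl19 (GGGAATTTTG), with no match in the Madcam1 window. A match describes letters only, and no file here bears on binding.

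Library totals ran from 449880 to 1264354 counts, and the cromolyn experiment, AOM only included, was the shallowest (449880 to 544886). The epithelial gene Epcam ran from 9591 to 34760 CPM (counts scaled to a common library size) in the colon libraries but from 0 to 3.32 CPM in the MC-38 tumours, so those tumours lacked this marker of the tissue named in their label. Kit ran from 334 to 509 CPM in wild-type lesions and from 114 to 143 CPM in sash lesions, and the tumours of the genotypes overlapped (95.3 to 476 and 49.7 to 99.3 CPM). In sash MC-38 hosts the mast cell protease Cpa3 fell by 6.72 (log2; SE 0.38, adjusted p = 8.12e-07 by edgeR's quasi-likelihood test with Benjamini-Hochberg adjustment). Levels below are CPM after TMM scaling within a table. The MC-38 libraries were scaled in a table of their own, so their levels were compared with no test against the rest. A panel amplifies a short stretch of each transcript, and levels of different genes were not compared. Much of the Ccl19 transcript is shared with other annotated copies: of its 924 windows of 60 bases, up to 455 (49.2%) occur exactly in another of 4 gene models, so its counts may include theirs. Cxcl13 and Madcam1 shared no such window with another gene. In these bulk samples, fewer cells of a type and less RNA per cell cannot be told apart.

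Cxcl13 was highest in the young, AOM-treated wild-type colon and lowest in the MC-38 tumours. Its mean was 949 ± 640 CPM (SD, n = 3) with cromolyn given beside AOM, 611 ± 302 CPM (n = 3) with cromolyn after AOM, 558 ± 266 CPM (n = 3) in wild-type lesions and 484 ± 186 CPM (n = 3) with AOM only. The wild-type tumours had 170 ± 124 CPM (n = 5), the sash lesions 104 ± 13.8 CPM (n = 3) and the sash tumours 88.4 ± 51.8 CPM (n = 5). The MC-38 tumours of sash and wild-type hosts had 23.0 ± 12.9 CPM (n = 5) and 21.8 ± 22.3 CPM (n = 4). Every group overlapped with its neighbour in this order. Ccl19 was detected by few counts, and its order differed: 43.98 ± 31.1 CPM with cromolyn after AOM, 40.4 ± 12.9 CPM with cromolyn beside AOM and 36.4 ± 27.7 CPM in wild-type lesions. The other 6 groups had means from 1.14 CPM in sash tumours to 7.60 ± 14.8 CPM in wild-type tumours, and again all neighbours overlapped. Madcam1 ran in the colon groups from 51.9 ± 9.44 CPM in sash lesions to 272 ± 120 CPM with cromolyn after AOM. Its MC-38 means were 1.12 ± 2.24 CPM (n = 4) and 0.886 ± 1.44 CPM (n = 5). Of the neighbours in its order, AOM only and sash lesions did not overlap (means 1.90-fold apart). Sash lesions and the MC-38 tumours of wild-type hosts did not either, but these were scaled in separate tables. These pairs follow from the order of the same means, and the share of all genes without overlap was not counted for them.

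**Figure D1:**
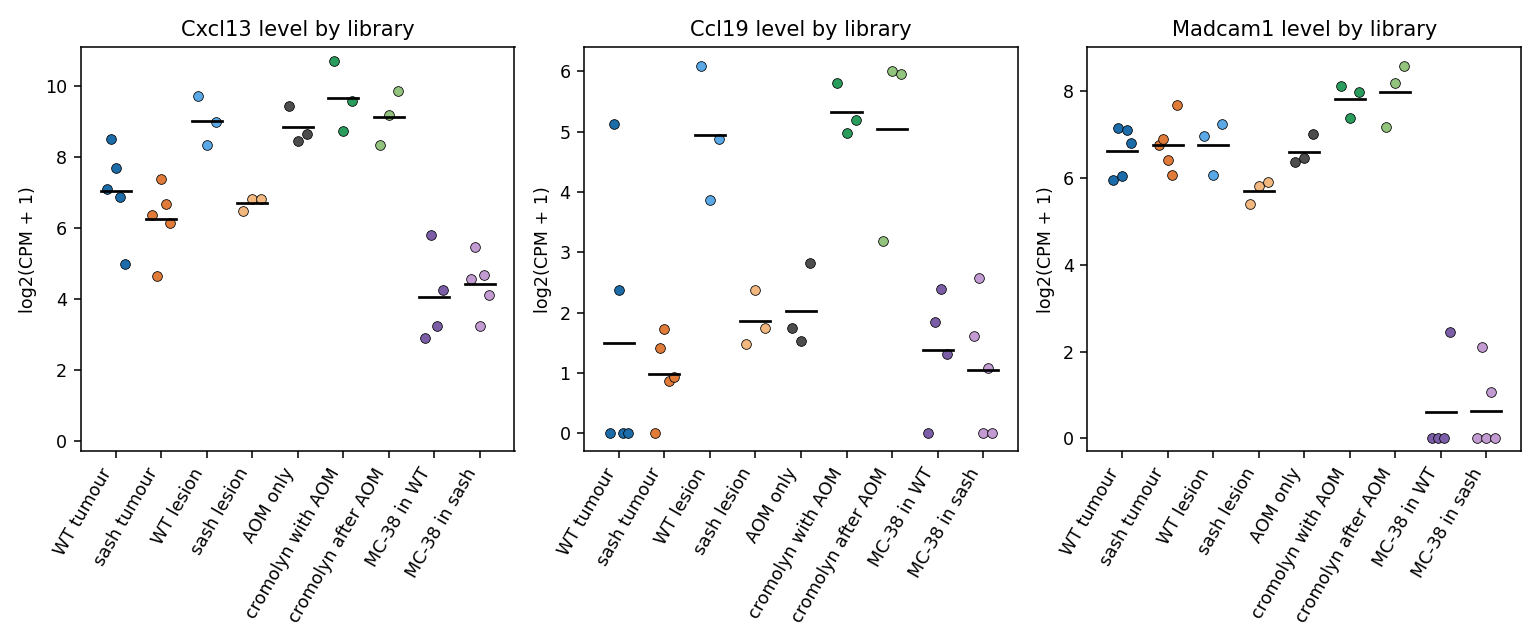
Level of each gene in each library as log2(CPM + 1), by group, with a bar at each group's mean on that scale. Cxcl13 and Ccl19 sit lower in sash than in wild-type lesions, Ccl19 and Madcam1 sit higher in both cromolyn groups than with AOM only, and Madcam1 is at or near 0 in the MC-38 tumours.

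In the preneoplastic lesions, the follicle chemokines and Madcam1 were all lower in sash than in wild-type mice, in every library, and Cxcl13 passed the test. Cxcl13 had 847, 323 and 504 CPM in the 3 wild-type lesions and 87.7, 111 and 112 CPM in the 3 sash lesions. The lowest wild-type lesion thus stood far above the highest sash lesion, and the sash lesions lay close together. Cxcl13 fell by 2.45 (log2; SE 0.38, adjusted p = 0.0144, edgeR quasi-likelihood test with Benjamini-Hochberg adjustment), beside 2.32% of the 775 genes tested that passed as lower. With the replicate number as a block, 84 genes passed instead of 22, and Cxcl13 fell by 2.33 (adjusted p = 0.00169, edgeR). That block pairs the lesions by these same data and not by the labels, so its calls are no separate support. Without sash lesion replicate 2 no gene passed, and the adjusted p of Cxcl13 was 0.0537 with a log2 difference of -2.48.

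Ccl19 had 67.2, 13.6 and 28.3 CPM in wild-type lesions, from 38, 9 and 30 counts. In sash lesions it had 1.79, 4.17 and 2.36 CPM, from 1, 3 and 2 counts. The groups did not overlap, but Ccl19 was below the filter on low counts and was not tested. Its pooled count was 11.7 times as high in wild-type as in sash lesions (exact 95% interval 5.14 to 32.9, which covers counting error only). Madcam1 had 124, 66.7 and 150 CPM in wild-type lesions and 41.2, 55.6 and 59.0 CPM in sash lesions. These groups did not overlap either, with a gap between 59.0 and 66.7 CPM. Its log2 difference of -1.14 (SE 0.40) did not pass (adjusted p = 0.162 by edgeR; 0.0757 with the replicate block). Libraries that do not overlap, with sash lower, were found for 14.2% of all genes tested in this comparison.

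None of the partners of these genes on lymphocytes passed in the comparison without the replicate block. Cxcr5, the receptor for Cxcl13 on B cells, had 246, 72.7 and 47.1 CPM in wild-type and 23.3, 11.1 and 4.72 CPM in sash lesions, with a log2 difference of -3.31 (SE 0.80) that did not pass (adjusted p = 0.0688, edgeR). Ccr7, the receptor for Ccl19, differed by -1.24 (SE 0.51, adjusted p = 0.228, edgeR). For the lymphotoxin chains the differences were -2.12 for Ltb (SE 0.55, adjusted p = 0.0790) and -1.40 for Lta (SE 0.52, adjusted p = 0.185), while their receptor Ltbr differed by 0.07 (SE 0.26), none passing in edgeR. Of the 10 tested genes of the lymphotoxin and NF-kappaB list, 1 rose (Nfkbia, the NF-kappaB inhibitor, by 0.85, SE 0.18, adjusted p = 0.0476, edgeR), beside 0.516% of all genes that passed as higher, and none fell. Their median difference was 0.13, beside 0.05 over all genes. Itgb7 and Itga4, the integrin chains that bind Madcam1, differed by -0.78 (SE 0.35) and -0.18 (SE 0.30), and none of the 10 tested homing and adhesion genes passed (median -0.55). With the replicate block, which pairs these lesions by the data only, 7.61% of all genes passed as lower and 3.23% as higher. Cxcr5 then fell by 3.17 (SE 0.40, adjusted p = 0.000399), Ccr6 by 2.38 (SE 0.40, adjusted p = 0.00282) and Ltb by 1.90 (SE 0.33, adjusted p = 0.00297, edgeR). Selplg, the P-selectin ligand, fell by 0.99 (SE 0.29, adjusted p = 0.0477), and Tnf rose by 1.21 (SE 0.34, adjusted p = 0.0443, edgeR). Ccr7 and Lta did not pass under the block either (adjusted p = 0.180 and 0.0797, edgeR).

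B cell genes moved with Cxcl13 in this comparison. Their summed level over 7 genes was 2426, 812 and 671 CPM in wild-type lesions and 238, 98.6 and 42.4 CPM in sash lesions. The median over the 6 B cell genes tested was -3.16. All 6 were lower without overlap, beside 14.2% of all genes, and 3 passed as lower, beside 2.32% of all genes. Among these, Cd22, an inhibitory co-receptor of B cells, fell by 3.04 (SE 0.65, adjusted p = 0.0476, edgeR). Of 8 tested T cell genes, 7 were lower and none passed (median -0.73). The replicate block was taken from these same data, so its calls are no separate support. With it all 6 B cell genes passed as lower, beside 7.61% of all genes. Of the 8 T cell genes 1 did, Cd2 by 1.61 (SE 0.36, adjusted p = 0.0152, edgeR). Under the block the cytokine receptor Il21r also fell, by 1.76 (SE 0.42, adjusted p = 0.0202), and the epithelial gene Car4 rose by 0.79 (SE 0.18, adjusted p = 0.0168, edgeR), neither of which passed without it. The endothelial gene Kdr differed by 0.09, and of its list of 8 names it is the only one on the panel, so the level of endothelium rests on 1 gene. The part of B cell or vessel content in the lower chemokines was not tested.

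With cromolyn, Ccl19 and Madcam1 were higher than with AOM only in both arms, in every library, and both passed in the arm that received cromolyn after AOM. The arms share the same 3 AOM-only libraries, so they are no independent repeats. Ccl19 had 2.34, 1.88 and 6.09 CPM with AOM only, from 1, 1 and 3 counts. It had 55.0, 30.6 and 35.5 CPM with cromolyn beside AOM (25, 16 and 15 counts) and 8.15, 62.9 and 60.9 CPM with cromolyn after AOM (4, 33 and 32 counts). The lowest cromolyn library, replicate 1 of the later arm, was just above the highest AOM-only library. Ccl19 rose by 3.57 on the log2 scale with cromolyn after AOM (SE 0.79, adjusted p = 0.0339, edgeR), where 2.34% of the 768 genes tested passed as higher. Beside AOM the difference was of like size, 3.44 (SE 0.80), and did not pass (adjusted p = 0.0651, edgeR), as for all but 0.26% of genes. The pooled counts were 13.9 times (exact 95% interval 5.66 to 44.01) and 11.99 times (4.84 to 38.4) those of AOM only.

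Madcam1 had 81.8, 86.5 and 128 CPM with AOM only, so all of these values lie well above the level of a few counts. It had 277, 167 and 253 CPM with cromolyn beside AOM and 145, 290 and 383 CPM with cromolyn after AOM. Each cromolyn library exceeded each AOM-only library. Such a gap in the higher direction was seen for 13.8% of all tested genes in either arm. Madcam1 rose by 1.44 with cromolyn after AOM (SE 0.34, adjusted p = 0.0356, edgeR). The difference beside AOM was 1.22 (SE 0.34, adjusted p = 0.101, edgeR). Both calls in the later arm were lost when any AOM-only library, or replicate 2 or 3 of that arm, was left out, with differences of 3.23 to 4.22 and adjusted p of 0.0553 to 0.125 for Ccl19, and 1.15 to 1.66 and 0.0553 to 0.140 for Madcam1 (edgeR).

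Cxcl13 did not pass in either arm. Its level was 696, 352 and 404 CPM with AOM only, 1663, 427 and 758 CPM with cromolyn beside AOM, and 324, 585 and 925 CPM with cromolyn after AOM. The groups overlapped, and the log2 differences from AOM only were 0.96 (SE 0.55, adjusted p = 0.420) and 0.31 (SE 0.55, adjusted p = 0.773) by edgeR. Between the cromolyn arms none of the 768 genes passed in edgeR (0%), with 64 at an unadjusted p under 0.05 and 6 passing in DESeq2. The differences of the earlier minus the later arm were 0.64 (SE 0.54) for Cxcl13, -0.13 (SE 0.55) for Ccl19 and -0.22 (SE 0.32) for Madcam1.

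Ccr7, through which cells answer Ccl19, had 4.67, 9.40 and 10.1 CPM with AOM only, 41.8, 24.9 and 23.7 CPM beside cromolyn and 12.2, 34.3 and 59.0 CPM with cromolyn after AOM. Both cromolyn groups lay above AOM only without overlap, as 13.8% of all tested genes did in either arm. The differences of Ccr7 were 1.83 (SE 0.61, adjusted p = 0.162) and 2.05 (SE 0.59, adjusted p = 0.0728), neither passing in edgeR. Of its list of receptors and co-ligands, 1 gene passed in the later arm: Cxcl12, a broadly made stromal chemokine, fell by 0.71 (SE 0.13, adjusted p = 0.0257, edgeR), where 2.47% of all genes passed as lower. Ltb differed by 1.44 (SE 0.51) and 1.25 (SE 0.51), Itgb7 by -0.13 (SE 0.31) and -0.41 (SE 0.31), with none passing. No homing and adhesion gene of 10 tested passed in either arm, with medians of 0.23 and 0.11.

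Markers of other cells also differed in level in the cromolyn arms. In neither arm did a B cell, T cell, epithelial, endothelial or fibroblast and stroma gene pass. The B cell sum was 346, 145 and 268 CPM with AOM only, 2099, 454 and 717 CPM with cromolyn beside AOM, and 305, 796 and 1870 CPM with cromolyn after AOM. All 6 tested B cell genes lay above 0 in both arms (medians 2.15 and 2.04), and none passed. Of these, 6 lay higher without overlap in the first arm and 1 in the second, beside 13.8% of all genes in either arm. The sum of the epithelial genes Epcam and Car4 was 46870 to 61810 CPM with AOM only, 21570 to 49850 CPM beside cromolyn and 20270 to 37240 CPM in the later arm. The sum of 3 fibroblast and stroma genes, 11050 to 12750 CPM with AOM only, was lower in each cromolyn library, at 6784 to 10820 CPM and 7162 to 8309 CPM. All 8 tested T cell genes lay above 0 in both arms (medians 0.55 and 0.35), and none passed. The vessel gene Kdr, at 196 to 213 CPM with AOM only, was lower in each cromolyn library (126 to 189 CPM), opposite to Madcam1. The share of all genes that lay lower without overlap was not counted for these arms. The part of these cells in the higher Ccl19 and Madcam1 was not tested.

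The AOM-only mice had the same labelled treatment and genotype as the wild-type lesions, and comparing them shows how far these sets of wild-type mice lay apart. Cxcl13 differed by 0.16 (SE 0.37, adjusted p = 0.789) and Madcam1 by 0.16 (SE 0.35, adjusted p = 0.784) in lesions minus AOM only, both overlapping, where 15.6% of the 762 tested genes passed (edgeR). Ccl19 did differ: the lesions had 13.6 to 67.2 CPM against 1.88 to 6.09 CPM, a pooled count 9.42 times as high (exact 95% interval 3.87 to 29.8), below the filter and untested. Libraries without overlap in that direction were found for 21.1% of the tested genes. Ccr7 rose by 2.55 (SE 0.57, adjusted p = 0.0210) and Cxcr5 by 2.63 (SE 0.65, adjusted p = 0.0289), and 4 of 6 B cell genes rose, among them Ms4a1 (CD20) by 2.79 (SE 0.56, adjusted p = 0.0154, edgeR). Ltbr also rose, by 1.00 (SE 0.25, adjusted p = 0.0287, edgeR). In Ccl19 level the wild-type lesions overlapped the cromolyn groups (8.15 to 62.9 CPM), and the AOM-only group overlapped the sash lesions (1.79 to 4.17 CPM). The labels give both sets the same age, genotype and AOM schedule, but name the samples differently (PN for the lesions, AOM for the other set). The samples were also unlike in other ways. The fibroblast and stroma sum was 1675 to 5936 CPM in the lesions and 11050 to 12750 CPM with AOM only, and Kdr passed as lower (-0.98). Library totals were 616745 to 1149069 and 470661 to 544886 counts. The part of tissue, handling, sampling or depth in the Ccl19 difference was not tested.

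In the tumours, neither Cxcl13 nor Madcam1 passed between the genotypes, and Ccl19 rested on 1 library. Cxcl13 had 136, 362, 204, 116 and 30.7 CPM in wild-type tumours and 81.6, 24.0, 166, 101 and 69.6 CPM in sash tumours. The range of one group lay mostly within that of the other, and the difference was -0.97 (SE 0.60, adjusted p = 0.391, edgeR). Madcam1 had 60.8, 142, 65.1, 137 and 111 CPM in wild-type and 107, 118, 83.9, 66.4 and 203 CPM in sash tumours, with a difference of 0.14 (SE 0.36, adjusted p = 0.846, edgeR). No gene of 797 passed in edgeR (0%), with 159 at an unadjusted p under 0.05 and 82 passing in DESeq2. Ccl19 was at 0 in wild-type tumours 1, 4 and 5, at 4.20 CPM in replicate 3 and at 33.8 CPM in replicate 2. A count of 0 allows up to 2.61 to 3.79 CPM in those libraries (3 counts over the library total, without the TMM scaling of the levels). Sash tumours had 0, 1.66, 2.31, 0.830 and 0.916 CPM, from 7 counts in all against 28. The pooled ratio of wild-type to sash was 5.12 (exact 95% interval 2.19 to 13.9), and sash to wild-type it was 0.195, but 1.18 without wild-type tumour 2. That tumour also had the highest Cxcl13 (362 CPM), Madcam1 (142 CPM) and Cxcr5 (110 CPM) of its group, and a B cell sum of 641 CPM where the other 4 of its group had 21.7 to 35.5 CPM.

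In MC-38 tumours Ccl19 and Madcam1 were near the limit of detection in both hosts, and Cxcl13 was low. Cxcl13 had 6.49, 54.4, 8.45 and 17.9 CPM in wild-type hosts and 22.6, 43.2, 8.49, 24.4 and 16.2 CPM in sash hosts. These overlapped, with a difference of 0.04 (SE 0.61, adjusted p = 0.983) where 1.26% of 714 genes passed (edgeR). Ccl19 had 0, 2.59, 4.22 and 1.49 CPM in wild-type and 2.05, 4.98, 0, 1.11 and 0 CPM in sash hosts, from 7 and 5 counts (sash to wild-type 0.688, exact 95% interval 0.172 to 2.52). Madcam1 was found in 1 of 4 wild-type and 2 of 5 sash libraries, by 3 counts in each group (ratio 0.964, 0.129 to 7.20). A 0 there allows up to 3.04 to 6.25 CPM, without TMM scaling. The lymphocyte partners were not all low there. The T cell sum was 1856 to 3188 CPM in these tumours beside 201 to 1309 CPM in the colon libraries, Itgb7 was at 112 to 226 CPM and Ltb at 220 to 963 CPM. Ms4a1, in contrast, had 1 count in all 9 libraries and Cxcr5 had 3, and Cd79a was at 0 throughout. Other B cell genes were not so low. Cd22 had means of 37.2 CPM in wild-type and 64.9 CPM in sash hosts, and the antibody light chain gene Igkc 744 and 1909 CPM. The B cell sum was 28.5 to 43.3 CPM in wild-type and 35.7 to 104.6 CPM in sash hosts, nearly all of it Cd22. In the AOM libraries, scaled in another table, its medians were 30.4 CPM in wild-type and 20.7 CPM in sash tumours. Wild-type lesions had 671 to 2426 CPM. Sums of like size thus do not show like B cell content in the MC-38 and AOM tumours. None of the tested genes of the chemokine receptor, lymphotoxin, homing or B cell lists passed between the hosts.

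Between lesions and tumours, Cxcl13 fell in wild-type mice and Madcam1 rose in sash mice. Stage, age, number of injections and time since AOM differ together here and cannot be told apart. Cxcl13 fell by 1.75 in wild-type tumours against wild-type lesions (SE 0.59, adjusted p = 0.0292, edgeR), where 17.6% of the 848 genes tested passed as lower. The groups overlapped, since tumour 2 (362 CPM) exceeded the lowest lesion (323 CPM). That call was lost without wild-type lesion 1 (-1.29, adjusted p = 0.161), lesion 3 (-1.80, 0.0529) or tumour 1 (-1.66, 0.0614, edgeR). In sash mice Cxcl13, already low in the lesions, differed by -0.24 (SE 0.61, adjusted p = 0.762). Ccl19 differed by -2.37 in wild-type mice (SE 1.08, adjusted p = 0.0952), and without wild-type tumour 2 by -5.01 (adjusted p = 0.000788, edgeR). In sash mice it differed by -1.21 (SE 1.57, adjusted p = 0.551).

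Madcam1 differed by -0.19 between stages in wild-type mice (SE 0.40, adjusted p = 0.754). In sash mice it rose by 1.15 (SE 0.43, adjusted p = 0.0369, edgeR), with every sash tumour (66.4 CPM or more) above every sash lesion (59.0 CPM or less), where 23.9% of the 848 genes passed as higher and 27.5% lay higher without overlap. This call was lost without sash tumour 2 or 5 or any 1 of the sash lesions (differences 0.83 to 1.24, adjusted p 0.0516 to 0.127, edgeR). The direct test of whether the genotype effect differed between stages passed for no gene of 848 in edgeR (0%), with 128 at an unadjusted p under 0.05 and 20 passing in DESeq2. Its estimates were 1.51 (SE 0.86) for Cxcl13, 1.15 (SE 2.13) for Ccl19 and 1.33 (SE 0.58) for Madcam1.

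Other adhesion genes, and genes of lymphocytes, also changed between the stages. In sash mice 7 of 12 homing and adhesion genes rose and none fell (median 1.03, beside 0.02 over all genes), where 23.9% of all genes passed as higher. Among these 7 were Selp (P-selectin) by 3.56 (SE 0.48, adjusted p = 4.25e-05), Sele (E-selectin) by 3.50 (SE 1.02, adjusted p = 0.0113) and Icam1 by 2.42 (SE 0.42, adjusted p = 0.000355, edgeR). In wild-type mice 3 of 12 rose, Selp, Icam1 and Itgb1, where 19.5% of all genes passed as higher, and the skin and mucosal homing receptor Ccr10 fell by 2.50 (SE 0.58, adjusted p = 0.00438, edgeR). Of 11 genes of the lymphotoxin and NF-kappaB list, 3 rose and 3 fell in wild-type mice, beside 19.5% of all genes that passed as higher and 17.6% as lower. The median of that list was -0.02, beside -0.0012 over all genes, so the list as a whole was not shifted. Those that fell were both lymphotoxin chains, Ltb by 1.53 (SE 0.42, adjusted p = 0.0117) and Lta by 1.63 (SE 0.59, adjusted p = 0.0418, edgeR), and Tnfrsf11a, the receptor RANK, by 1.12 (SE 0.24, adjusted p = 0.00273, edgeR). Those that rose were the NF-kappaB subunits Rela by 0.85 (SE 0.16) and Nfkb1 by 0.70 (SE 0.21) and the ligand Tnfsf14 (LIGHT) by 1.87 (SE 0.62). In the same mice 5 of 6 B cell genes fell (median -3.05), as did 4 of 8 T cell genes (median -1.24). In sash mice no B cell gene passed (median -2.89) and 1 of 8 T cell genes fell (Cd8a, by 3.00, SE 0.52), where 23.6% of all genes passed as lower. Of the 2 epithelial genes, Car4, a gene of mature colonocytes, fell by 2.69 in wild-type and by 5.83 in sash mice (adjusted p = 0.0370 and 0.000510, edgeR). Epcam, made by epithelial cells in general, differed by 0.20 (SE 0.16) and 0.07 (SE 0.16) and did not pass. Myeloid genes stood higher beside Madcam1 in the sash mice: their summed level over 5 genes was 2717 to 3724 CPM in sash tumours and 1215 to 1694 CPM in sash lesions. Of the 5, 3 rose (median 1.21), beside 23.9% of all genes. In wild-type mice the sums were 1392 to 3079 CPM in tumours and 1103 to 1362 CPM in lesions, and 2 of the 5 rose (median 0.84), beside 19.5% of all genes. The part of epithelial or myeloid content in these differences was not tested.

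**Figure D2:**
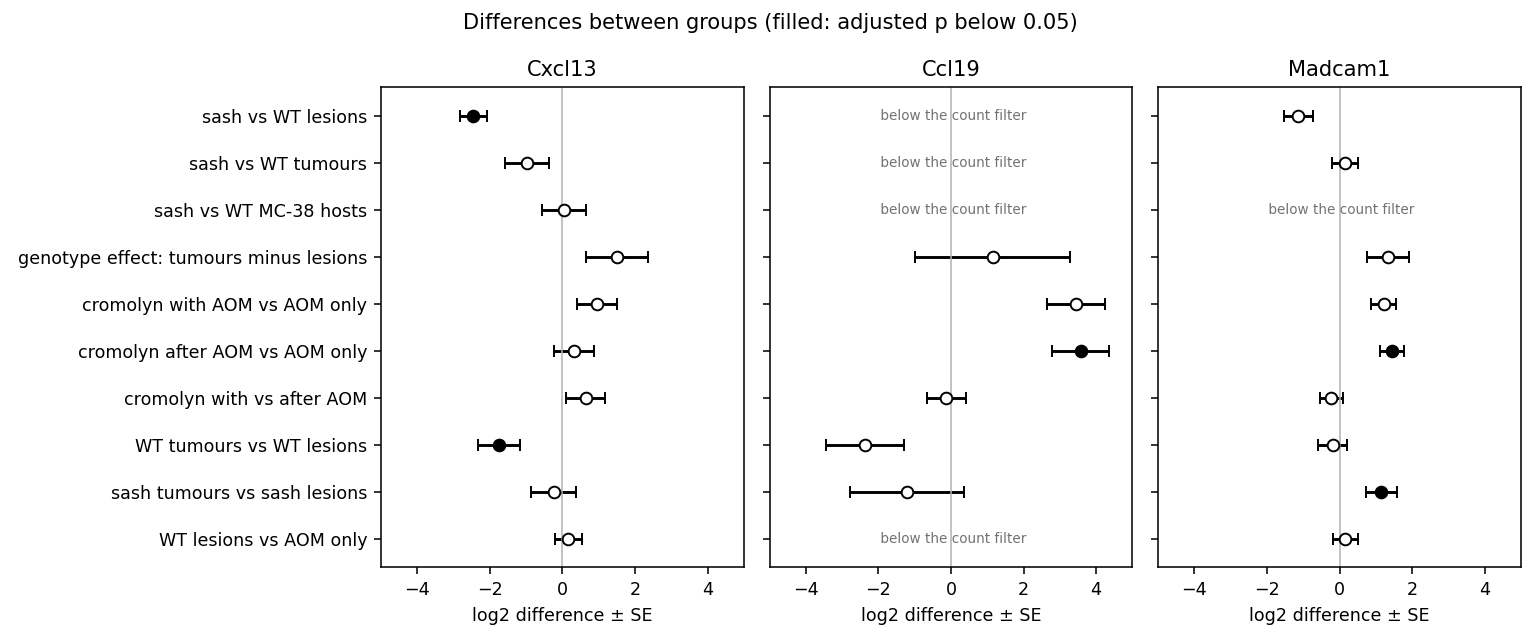
Log2 difference ± SE of each gene in each of 10 comparisons by edgeR, first group minus second, with filled points where the adjusted p was below 0.05. Filled points are Cxcl13 in sash lesions and in wild-type tumours against lesions, Ccl19 and Madcam1 with cromolyn after AOM, and Madcam1 in sash tumours against lesions.

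Within groups, genes of lymphocytes were among those most like each of the 3 genes. The measure was Pearson's r of log2(CPM + 1) after each group's mean was subtracted, over the 25 AOM libraries, and is a description, since all genes of a library share its depth and cell content. Cxcl13 varied with Ccl19 (r = 0.62) but little with Madcam1 (r = 0.14), and Ccl19 and Madcam1 had r = 0.41. Over the 9 MC-38 libraries the values were 0.61, 0.38 and 0.38, at counts near 0 for Ccl19 and Madcam1. Of 805 genes compared, those most like Cxcl13 included Lta (r = 0.78, rho = 0.77), the follicular dendritic and B cell complement receptor Cr2 (0.64), Ms4a1 (0.63) and the T cell chemokine Ccl5 (0.60). The median over all genes was r = -0.01. Without the 2 libraries farthest from the Cxcl13 median, wild-type tumour 5 and sash tumour 2, r with Lta was 0.84. Ltb followed Cxcl13 with r = 0.50 and the receptor Ltbr with r = -0.33.

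The genes most like Ccl19 included Cxcr5 (r = 0.78, rho = 0.62), the MHC class II gene H2-Eb2 (0.78), the B cell factor Pax5 (0.77) and Ms4a1 (0.75), ahead of its own receptor Ccr7 (0.65). These values rest in part on wild-type tumour 2: without it and replicate 1 of cromolyn after AOM, r with Cxcr5 was 0.56 and with Ccr7 0.44. Ccl19 also varied with library total (r = -0.43), as Cxcl13 (r = -0.07) and Madcam1 (r = -0.10) did less. Those most like Madcam1 included the guanylate-binding protein gene Gbp2b (r = 0.65, rho = 0.66), the cytotoxic cell cathepsin Ctsw (0.62), Ccr6 (0.62), a receptor of B and T cells in gut follicles, and the antibody light chain gene Igkc (0.61). Its r was 0.40 with Itgb7, 0.33 with Itga4, 0.31 with Ms4a1, 0.43 with the adhesion molecule Vcam1 and -0.02 with Kdr. Without replicate 1 of cromolyn after AOM and sash tumour 4, the libraries farthest from the Madcam1 median, its r with Ctsw was 0.48. With Gbp2b, Ccr6 and Igkc it was then 0.63, 0.61 and 0.60.

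**Figure D3:**
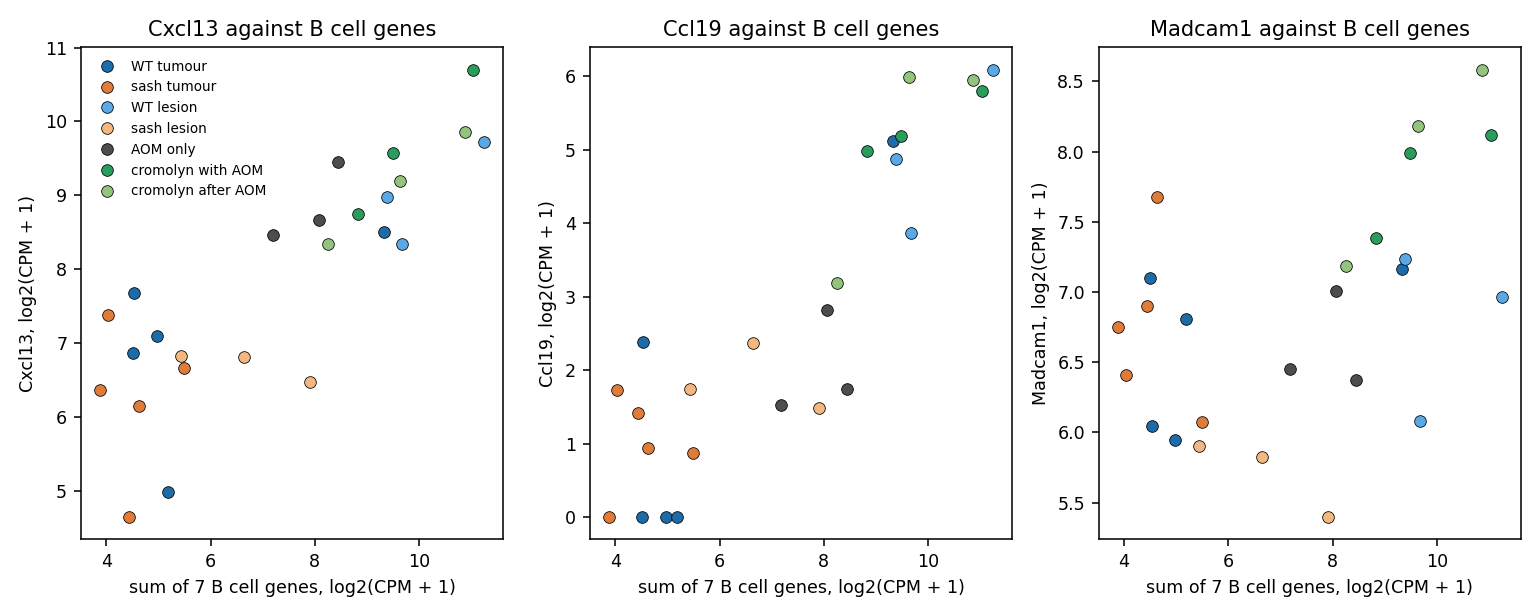
Level of each gene against the summed level of 7 B cell genes in the 25 AOM libraries, both as log2(CPM + 1), coloured by group. Cxcl13 and Ccl19 are highest in the libraries with the highest B cell sums, wild-type tumour 2 (B cell sum 641 CPM, Ccl19 33.8 CPM) among them for Ccl19, and Madcam1 spreads widely at low B cell sums.

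**Figure D4:**
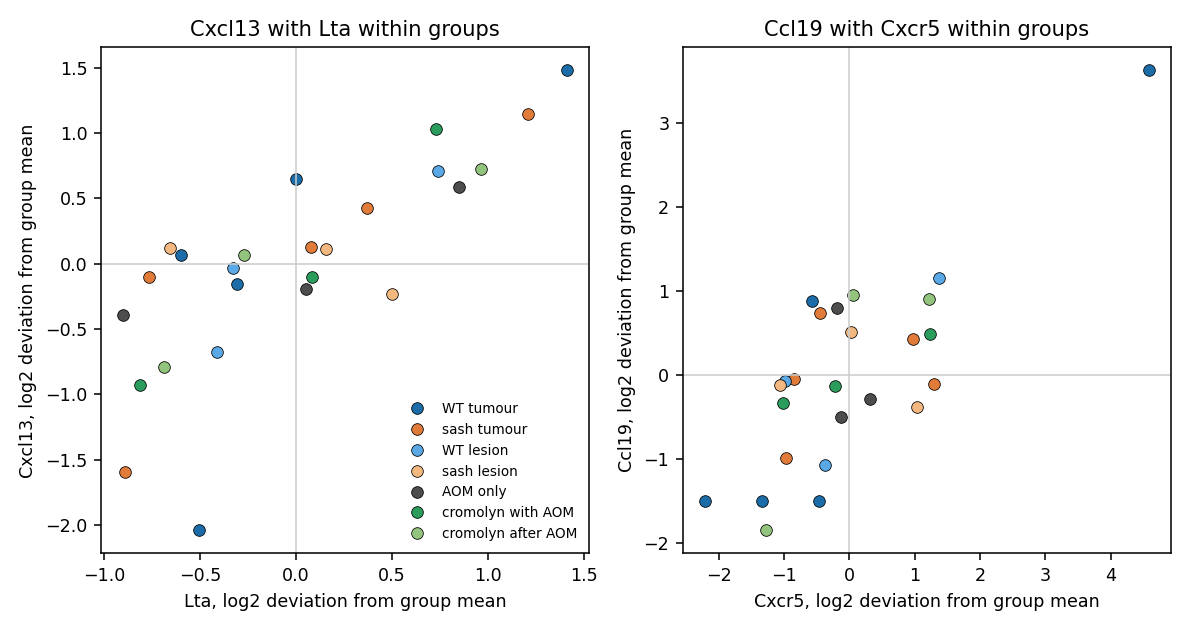
Deviation of each library from its group's mean in log2(CPM + 1), for Cxcl13 against Lta (r = 0.78) and Ccl19 against Cxcr5 (r = 0.78), over the 25 AOM libraries coloured by group. The point at the top right of the Ccl19 plot is wild-type tumour 2, and r was 0.56 without it and the farthest other library.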

How the data were processed

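RNA of mouse colon samples and tumours was read with a QIAseq targeted immuno-oncology panel on a MiSeq, per the labels' protocols. The authors deposited raw counts per gene, 988 genes and 5 control entries (all at 0, left out) in each table, with 25 AOM libraries in one and 9 MC-38 libraries in the other. The submitters' processing notes name mm9 and DESeq2. The sources used here do not name an aligner or counter, nor say if molecular tags were collapsed. Intervals and floors (3 counts) cover counting error only.

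The tests were run in edgeR 4.0.16 by quasi-likelihood (limma 3.58.1, R 4.3.3), on counts scaled by TMM and filtered by filterByExpr (minimum count 10, minimum total 15), with Benjamini-Hochberg adjustment over all genes of a comparison and a threshold of 0.05. Genotypes were fitted per stage or model, the cromolyn experiment's 3 groups as 1 fit, and tumours with lesions (4 groups) for stage. Members below the filter have pooled count ratios with exact 95% intervals. The text names the 3 members everywhere, list genes that passed or had the smallest p, and the 5 genes most like each member. Some genes that this rule names are not reported here. Of 145 list names 77 were on the panel. The members and the lists were chosen with earlier results of these data known.

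Alternatives were RLE size factors, library totals, scaling to Rpl13a (the only housekeeping gene of its list on the panel), no filter, DESeq2 1.42.0, all 25 AOM libraries in 1 fit, a replicate block, and leaving out each library. Same-numbered sash and wild-type lesions deviated together from their group means (r = 0.14 to 0.50 over 3 pairs). Blocked values stand beside that comparison for the members and for list genes whose call changed. This pairing comes from the data, not from the labels, and lesions with unlike numbers were not correlated. Whether the numbers pair the lesions is thus not known. No replicate pair agreed within sampling noise (chi-square per degree of freedom 5.30 to 177). The fits were run on simulated data with the same spread for all genes and changes set only in well-counted genes. Those runs do not cover genes at few counts or groups with a library far from the rest. Figures show log2(CPM + 1), with a pseudocount of 1.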

Additional observations from a re-analysis of the deposited data

Results flagged for a closer look

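Of 12 group and gene sets with 4 to 10 libraries examined, 2 held a library far from the others. Chance gives about 1 in 20 for values that vary freely, which neither of these sets does. Ccl19 was at 33.8 CPM in wild-type tumour replicate 2, and the next library of that group had 4.20 CPM, so the gap made up 0.876 of the group's whole range (critical value 0.710). Replicates 1, 4 and 5 of that group were tied at 0, so this gap is not set against the chance rate. Madcam1 was at 4.48 CPM in the MC-38 tumour of wild-type host replicate 5, where the other 3 libraries were at 0. The gap is then the whole range whatever the value, and the value rests on 3 counts, so it is not set against the chance rate.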

How the results depend on the processing

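Of 174 values of the 3 genes recomputed under other settings, 153 kept their direction and their side of the threshold, 11 lost and 4 gained a call, and 6 changed sign. Leaving out single libraries gave 278 values, of which 238 kept both, 19 lost and 4 gained a call, and 17 changed sign. The cause of each change was not tested. Scaling to Rpl13a rests on 1 gene and moved the median of all genes by -0.27 with cromolyn beside AOM, 0.14 with cromolyn after AOM, 0.14 in tumours, -0.40 between the cromolyn arms, -0.10 between wild-type stages and -0.43 for wild-type lesions against AOM only. Library totals moved it by 0.11 with cromolyn after AOM, 0.22 between wild-type stages and 0.18 between sash stages.

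With Rpl13a scaling, Cxcl13 differed by -2.22 in sash lesions (adjusted p = 0.0656) and by -1.63 between wild-type stages (0.0987), Madcam1 by 1.61 with cromolyn after AOM (0.0640) and by 0.99 between sash stages (0.239), all by edgeR and none passing. It reversed Cxcl13 in MC-38 tumours (-0.064) and Cxcl13 (-0.31) and Madcam1 (-0.23) in wild-type lesions against AOM only. With library totals, Ccl19 rose by 3.49 with cromolyn beside AOM (adjusted p = 0.0360, edgeR), Cxcl13 between wild-type stages no longer passed (-1.50, 0.0563) and Madcam1 there was 0.039. DESeq2 called Ccl19 (3.54, adjusted p = 0.00742) and Madcam1 (1.22, 0.0202) with cromolyn beside AOM. In 1 fit of all 25 AOM libraries, edgeR no longer called Cxcl13 in sash lesions (-2.42, adjusted p = 0.0584), nor Ccl19 (3.61, 0.383) and Madcam1 (1.45, 0.306) with cromolyn after AOM, and Ccl19 fell by 2.38 between wild-type stages (0.0415).

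With the replicate block, for which the labels give no pairing, Ccl19 with cromolyn after AOM stood at 3.52 (adjusted p = 0.0564, edgeR). Cxcl13 between wild-type stages stood at -1.59 (0.0759) and Madcam1 between sash stages at 0.92 (0.113), none of the 3 passing in edgeR. Under the block Ccl19 between the cromolyn arms was 0.028 and Cxcl13 between sash stages 0.13, both changed in sign, and the block changed no other call of the 3 genes. Same-numbered libraries correlated at -0.38 to 0.23 in tumours, -0.11 to 0.27 and -0.09 to 0.13 in the cromolyn arms against AOM only, and -0.03 to 0.63 in MC-38 tumours. The block changed the number of genes called from 22 to 84 in lesions, from 2 to 7 with cromolyn beside AOM, from 37 to 21 with cromolyn after AOM and from 9 to 3 in MC-38 tumours.

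Other settings moved the number of genes called as follows. In tumours (0) library totals gave 2, DESeq2 82 and the fit of all AOM libraries 88. In lesions (22) no filter gave 36 and DESeq2 70. With cromolyn beside AOM (2) library totals gave 18, Rpl13a scaling 1, DESeq2 39 and the fit of all AOM libraries 0. With cromolyn after AOM (37) Rpl13a scaling gave 10 and the fit of all AOM libraries 0. Between the cromolyn arms (0) library totals gave 3, Rpl13a scaling 4 and DESeq2 6. In MC-38 tumours (9) Rpl13a scaling gave 3 and DESeq2 51. Rpl13a scaling gave 125 between wild-type stages (314), 229 between sash stages (403) and 74 for wild-type lesions against AOM only (119). For the difference of genotype effects (0) DESeq2 gave 20 and the fit of all AOM libraries 4.

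Leaving out 1 library gave 0 to 17 genes called in tumours, 0 to 68 in lesions, 0 to 18 with cromolyn beside AOM, 1 to 41 with cromolyn after AOM, 0 to 3 between the cromolyn arms, 3 to 17 in MC-38 tumours, 183 to 367 between wild-type stages, 298 to 437 between sash stages, 0 to 10 for the difference of genotype effects and 11 to 268 for wild-type lesions against AOM only. Cxcl13 then ran from -2.67 to -1.98 in lesions, 0.27 to 1.35 with cromolyn beside AOM, -0.073 (without replicate 3) to 0.69 with cromolyn after AOM, -0.046 to 1.06 between the cromolyn arms, -0.26 to 1.07 in MC-38 tumours, -2.24 to -1.29 between wild-type stages and -0.28 to 0.52 for wild-type lesions against AOM only. Ccl19 ran from 3.12 to 4.09 with cromolyn beside AOM, 3.23 to 4.22 with cromolyn after AOM, -0.61 to 0.24 between the cromolyn arms and -5.01 to -1.57 between wild-type stages. Its pooled ratio of sash to wild type ran from 0.143 to 1.18 in tumours, 0.0670 to 0.127 in lesions and 0.337 to 1.09 in MC-38 tumours, and its ratio of wild-type lesions to AOM only from 6.36 to 15.8. Madcam1 ran from -0.18 to 0.30 in tumours, 1.07 to 1.44 with cromolyn beside AOM, 1.15 to 1.74 with cromolyn after AOM, -0.53 to 0.091 between the cromolyn arms, -0.42 to 0.10 between wild-type stages, 0.83 to 1.30 between sash stages and -0.10 to 0.44 for wild-type lesions against AOM only. Its pooled MC-38 ratio ran from 0.394 to 1.22. The depth of 449880 to 1264354 counts leaves Ccl19 at 5 counts over the AOM-only group and Madcam1 at 3 counts in each MC-38 group, so differences there rest on few reads.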
